A study of Arabidopsis thaliana with 18 samples.

Results

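The *bdr2* single mutant was set against wild type (WT) across all genes: 3 *bdr2* and 3 WT libraries, 6 of the 18 mRNA libraries of the series, with 20143 of the 33602 genes in the count table passing the filter on low counts and entering the test. WT was the Col-0 accession of *Arabidopsis thaliana*. The *bdr2* mutant was 1 T-DNA insertion line, called *bdr2-1* in the methods, which give another stock name than the labels. An effect of the mutated *BDR2* gene thus cannot be told apart here from any other difference that this line carries. Both groups were whole seedlings taken at 8 days, kept first for 4 days at 4 °C and then at 21 °C by the labels (the methods give a slightly higher temperature) under a cycle of 16 h light and 8 h dark, and the labels name no treatment for either. The methods call the libraries biological triplicates, but neither they nor the labels state how far the cultures behind them were separate, so the p-values measure the spread between these libraries. The other 12 libraries, 3 each of *bdr1*, *bdr3*, the triple mutant *bdrs* and *fpa* (a mutant of an RNA-binding protein of the flowering pathway), shared in the estimate of that spread and served for comparison. The question was what loss of 1 member of a protein family of 3 does to the transcriptome of a seedling.

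BORDER (BDR) proteins combine part of the elongation factor TFIIS with a SPOC domain, an arrangement also known from the yeast protein Bye1. They sit at the borders of genes, where RNA polymerase II pauses after the polyadenylation site, and have been tied to keeping transcription of an upstream gene from running into a closely spaced gene downstream on the same strand. *BDR2* is 1 of the family's 3 genes in Arabidopsis, beside *BDR1* and *BDR3*.

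Library totals were 17062008 to 17713047 counts in WT and 14188697 to 18467348 in *bdr2*, within the range of 11566600 to 21084793 over the series. Levels below are counts scaled to a common library size of 1e+06 (CPM) on library sizes scaled by the TMM method of edgeR, given for libraries 1, 2 and 3 of a group, with means ± SD of n = 3. The seedling label was checked on markers: the 5 shoot markers summed to between 54310.6 and 64141.9 CPM in WT and between 52764.6 and 67247.8 CPM in *bdr2*, and the 6 root markers to between 89.2 and 113.9 CPM and between 88.8 and 112.8 CPM. Of 5 flower and pollen markers only 2 passed the filter, and all 5 together held 2.19 to 3.29 CPM in WT and 1.82 to 3.14 CPM in *bdr2*. Reads from nuclear ribosomal RNA genes made up 0.0531% to 0.0842% of WT counts and 0.0776% to 0.521% of *bdr2* counts, and the part of this difference in the results was not tested. With the 3 libraries of the series richest in such reads left out, none of them WT or *bdr2*, 8 genes were called between *bdr2* and WT, 7 of them also called with all 18 libraries. In whole seedlings, fewer cells of a type and less RNA per cell cannot be told apart.

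The mutated gene itself was lowered but not lost. *BDR2* (AT5G11430, chr5:3647862-3652477, plus strand, coordinates of this report being those of TAIR10.1) stood at 14.3, 15.8 and 16.2 CPM in the WT libraries and at 5.61, 6.35 and 7.86 CPM in the *bdr2* libraries. Every *bdr2* library lay below every WT library, and *bdr2* kept 42.7% of the WT mean. The log2 fold change was -1.22 ± 0.14 (standard error of the fit, here and below), with a 95% interval from -1.52 to -0.92 and an adjusted p of 0.000481 in edgeR's quasi-likelihood test. These values came from 248, 288 and 289 reads in WT and 81, 101 and 143 reads in *bdr2*, summed over the whole gene model. The counts do not show where along the gene the remaining reads lay, so they do not tell whether a full transcript remained. In *bdrs*, labelled as the triple mutant, the mean *BDR2* level was 7.73 ± 0.248 CPM, and the difference from *bdr2* was -0.22 ± 0.15 on the log2 scale, with an interval from -0.53 to 0.09.

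The other family members and *FPA* did not pass the test. *BDR1* stood at 27.0, 34.3 and 26.4 CPM in WT and at 29.9, 25.1 and 29.3 CPM in *bdr2*, overlapping groups whose difference on the log2 scale had a 95% interval from -0.40 to 0.28. *BDR3* stood at 7.44, 8.47 and 8.26 CPM in WT and at 10.7, 7.04 and 8.41 CPM in *bdr2*, with an interval from -0.27 to 0.49. *FPA* averaged 40.0 ± 7.65 CPM in WT and 40.0 ± 9.36 CPM in *bdr2*. The intervals of *BDR1* and *BDR3* lay inside a 2-fold change in either direction. Against WT, *BDR3* was not clearly lowered in the libraries labelled as its mutants: it stood at 8.01, 5.19 and 6.17 CPM in *bdr3* (log2 -0.31 ± 0.18, interval -0.70 to 0.07) and at 6.42, 8.68 and 6.76 CPM in *bdrs* (log2 -0.14 ± 0.18, interval -0.52 to 0.24), so its counts do not check those labels. TFIIS, the elongation factor whose central domain the family shares, differed by 0.09 ± 0.13 on the log2 scale.

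Of the 20143 tested genes, 8 were called at an adjusted p under 0.05: 1 higher in *bdr2* (0.00496% of tested genes) and 7 lower (0.0348%). DESeq2 called the same 8. At an unadjusted p under 0.05 there were 159 genes (0.789%). Evenly spread p-values would put a share of 0.05 of the genes there, so the test was conservative for this comparison. Few or no genes under this p, here and in the windows, lists and classes below, are thus weak evidence of no change. The cause of this shortfall was not tested. All 8 called genes differed by more than 2-fold, and in all 8 the libraries of the groups did not overlap. Non-overlap alone was met by many more genes than were called, at 444 genes higher (2.2%) and 385 lower (1.91%). Each of these shares is below what a random order of the 6 libraries would give. Across all tested genes the median absolute log2 fold change was 0.080 and the median standard error 0.20, and for 17860 genes (88.7%) the 95% interval lay inside a 2-fold change in either direction. With 1 library left out, the count of calls fell to 5 without *bdr2* 1, 5 without *bdr2* 2 and 4 without *bdr2* 3, and was 6 or 7 without a WT library.

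**Figure D1:**
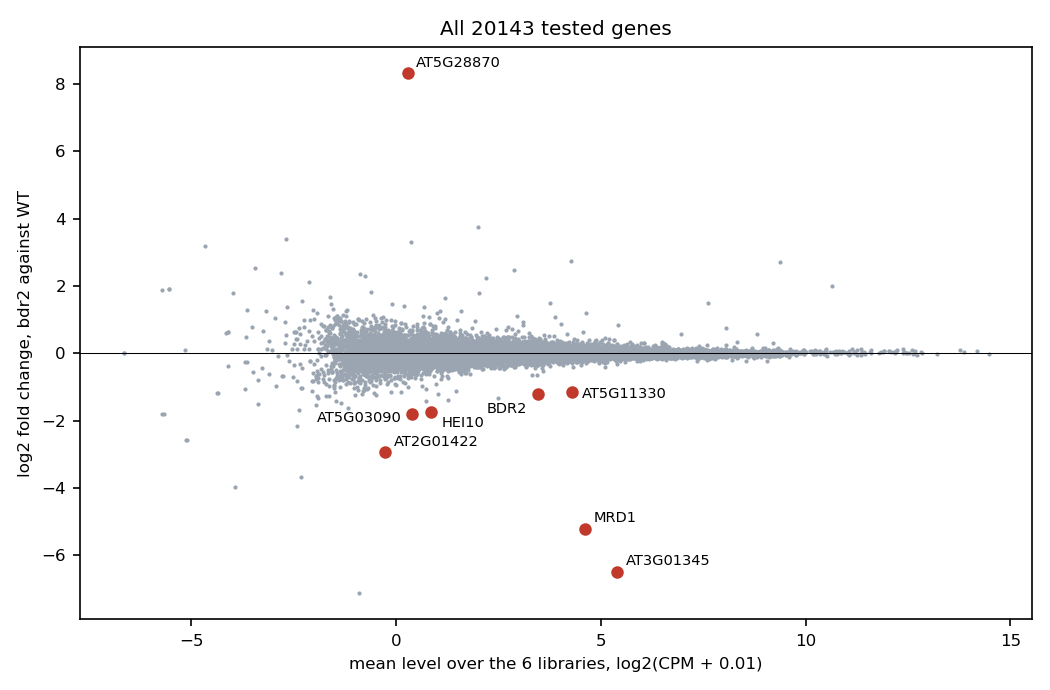
Log2 fold change of *bdr2* against WT (vertical axis) against the mean level over the 6 libraries as log2(CPM + 0.01), 1 point for each of the 20143 tested genes, with called genes marked and named. The 7 lower and 1 higher called genes stand away from a cloud centred on 0 (median -0.00165), which widens towards low levels.

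For part of the list it was WT that stood apart from every other group. In 3 of the 8 called genes, AT3G01345, *MRD1* and *HEI10*, each WT library was above all 15 other libraries of the series, *fpa* included, in which the *BDR* genes are not mutated. Over all 20143 tested genes, WT was above all other libraries in 8 genes and below them in 7, and *bdr2* above all others in 3 and below in 3. Each of these counts is below what a random order of the 18 libraries would give. The 8 called genes were picked by their difference from the same WT libraries, so the 3 among them are a description. Of the 8 called genes, 4 were also called in *bdr2* against *bdr1*, 3 against *bdr3* and 2 against *bdrs*, comparisons that use no WT library.

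The largest difference with reads in both groups was at AT3G01345, an uncharacterized protein gene at chr3:129138-130749 on the plus strand. It stood at 72.3, 83.5 and 95.2 CPM in WT and at 1.11, 0.818 and 0.88 CPM in *bdr2*. The groups were far apart: the *bdr2* mean of 0.935 ± 0.153 CPM was 1.12% of the WT mean of 83.7 ± 11.5 CPM, an 89.5-fold difference (log2 -6.48 ± 0.23, adjusted p 1.44e-12 in edgeR). Means were 0.751 CPM in *bdr1*, 2.5 in *bdr3*, 0.866 in *bdrs* and 2.08 in *fpa*, and the 15 libraries other than WT spanned 0.478 to 2.72 CPM. Set directly against the other mutants, *bdr2* differed by 0.31 ± 0.31 on the log2 scale from *bdr1* (interval -0.33 to 0.95) by -1.42 ± 0.26 from *bdr3* (adjusted p 0.129) and by 0.10 ± 0.30 from *bdrs* (interval -0.52 to 0.73). The gene upstream of it, AT3G01340, lies on the opposite strand 143 bp away and stood at 51.8, 46.7 and 50.1 CPM in WT and 53.3, 49.2 and 49.1 CPM in *bdr2* (log2 0.03 ± 0.11). The libraries of this neighbour overlapped between the groups, and the 95% interval of its difference ran from -0.20 to 0.26.

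The gaps between divergent genes are shown here because 3 of the 7 lower genes, AT3G01345, AT5G11330 and AT2G01422, had an upstream neighbour on the opposite strand within 250 bp, a layout shared by 1937 of the tested genes (9.68% of the 20009 that could be placed). Each sequence is the whole stretch between the 2 gene models in RefSeq's TAIR10.1, written 5′ to 3′ on the strand of the called gene and ending 1 base before its start, with capitals for matches on either strand to TATAAA (the TATA box), GGGCC (part of the site of TCP factors) or CACGTG (the G-box).
AT3G01345, chr3:128995-129137, plus strand: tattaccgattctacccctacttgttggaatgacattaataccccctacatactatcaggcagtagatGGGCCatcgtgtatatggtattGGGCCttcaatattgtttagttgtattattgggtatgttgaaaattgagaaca
AT5G11330, chr5:3618914-3619151, minus strand: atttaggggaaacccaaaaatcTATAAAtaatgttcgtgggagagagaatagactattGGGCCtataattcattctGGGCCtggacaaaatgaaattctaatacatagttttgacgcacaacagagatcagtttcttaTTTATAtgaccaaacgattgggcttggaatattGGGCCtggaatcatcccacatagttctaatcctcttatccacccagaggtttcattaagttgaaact
AT2G01422, chr2:183765-183939, plus strand: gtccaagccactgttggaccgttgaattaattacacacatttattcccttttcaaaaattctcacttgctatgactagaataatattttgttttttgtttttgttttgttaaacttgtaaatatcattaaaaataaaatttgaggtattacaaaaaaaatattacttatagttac
The gap of AT3G01345 held GGGCC at 2 places, 75 and 53 bp before its start, and neither other motif. The gap of AT5G11330 held GGGCC at 3 places, 180, 162 and 67 bp before the start, and TATAAA at 2. The gap of AT2G01422 held none of the 3 motifs, and at 24.6% G and C it was poorer in these bases than the other gaps, at 37.8% and 37.4%. Of the windows before the starts of 37897 genes, GGGCC occurred in 10.6% of those of 143 bp, 13.6% of those of 238 bp and 11.7% of those of 175 bp, and TATAAA in 30.7%, 43.3% and 35.2%. CACGTG occurred in 3.76%, 5.21% and 4.27%. These matches describe the letters and not sites that a factor was shown to bind.

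*MRD1* (AT1G53480, chr1:19963047-19964712, minus strand), annotated as mto 1 responding down 1 and named for its lower transcript level in a methionine over-accumulating mutant, stood at 46.5, 45.5 and 51.0 CPM in WT and at 1.32, 1.38 and 1.15 CPM in *bdr2*. All *bdr2* libraries were near 1 CPM, 37.1-fold below WT (log2 -5.21 ± 0.21, adjusted p 6.17e-12 in edgeR). The other mutants were also low but not equally: the means were 9.87 CPM in *bdr1*, 4.87 in *bdr3*, 1.56 in *bdrs* and 0.772 in *fpa*. *MRD1* was lower in *bdr2* than in *bdr1* (log2 -2.94 ± 0.21, adjusted p 3.69e-07) and than in *bdr3* (-1.92 ± 0.22, adjusted p 0.000373), whereas the difference from *bdrs* was -0.30 ± 0.24 with an interval from -0.81 to 0.21. *MRD1* and *BDR2* were the 2 genes called lower in *bdr2* against WT and against both other single mutants.

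*HEI10* (AT1G53490, chr1:19963267-19966952, plus strand), which encodes a factor that promotes meiotic crossovers, overlaps *MRD1* on the opposite strand over 1446 bp, 86.8% of *MRD1* and 39.2% of *HEI10*. It stood at 2.59, 2.80 and 2.92 CPM in WT and at 0.97, 0.629 and 0.88 CPM in *bdr2*. The groups did not overlap, at 3.36-fold (log2 -1.74 ± 0.28, adjusted p 0.0162 in edgeR), and every mutant library lay between 0.431 and 1.51 CPM. The overlap lies before the *HEI10* coding sequence, which starts at chr1:19965146, and a shorter *HEI10* model (chr1:19965146-19966811) does not reach *MRD1*. These are RefSeq models, which may differ from the TAIR10 genes that the authors counted. The libraries were stranded, but no source used here gives the strand setting of featureCounts. Reads of *MRD1* may thus be part of the *HEI10* count and the other way round. RefSeq also places a noncoding RNA gene here, AT1G07887 (chr1:19963067-19964105, plus strand). It overlaps *HEI10* over 839 bp on the same strand and *MRD1* over 1039 bp on the opposite strand. Its reads may be part of the *HEI10* count as well. The call was lost with any 1 of the 6 libraries left out, WT 1, 2 or 3 or *bdr2* 1, 2 or 3, with adjusted p between 0.0566 and 0.235. The flanking genes beyond this pair did not pass the test: *MSL4*, a mechanosensitive channel gene, at -0.02 ± 0.26 and *MUM4*, a seed mucilage gene, at 0.00 ± 0.16 on the log2 scale.

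AT5G03090 (chr5:725281-725962, plus strand) is annotated as a Mto 1 responding down protein, like *MRD1*, and was also lower. It stood at 2.31, 1.43 and 2.36 CPM in WT and at 0.624, 0.503 and 0.605 CPM in *bdr2*. The lowest WT library was above the highest *bdr2* library, a 3.52-fold difference of means (log2 -1.80 ± 0.32, adjusted p 0.0463 in edgeR). Unlike *MRD1*, it was not low in every mutant: means were 0.965 CPM in *bdr1*, 0.384 in *bdr3*, 1.71 in *bdrs* and 2.83 in *fpa*, and *bdr2* lay below *bdrs* by -1.57 ± 0.32 on the log2 scale (adjusted p 0.00506). The likeness of the 2 genes is shown by a stretch of the second coding exon of AT5G03090, in which capitals mark the bases that differ from *MRD1* at chr1:19963603-19963873 on the minus strand.
AT5G03090, chr5:725688-725958, plus strand: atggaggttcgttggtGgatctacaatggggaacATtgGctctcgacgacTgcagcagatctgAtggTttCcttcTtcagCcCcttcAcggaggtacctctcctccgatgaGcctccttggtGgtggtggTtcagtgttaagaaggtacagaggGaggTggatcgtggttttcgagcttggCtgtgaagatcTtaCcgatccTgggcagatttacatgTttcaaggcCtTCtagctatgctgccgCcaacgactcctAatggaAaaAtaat
Of its 271 bases, 242 (89.3%) were the same in *MRD1* and 29 differed. Reads were 43 bases long, and no 43-base stretch of AT5G03090 occurred elsewhere in the genome, while 25 of 1624 such stretches of *MRD1* (1.54%) did. The call of AT5G03090 held without WT 2 (adjusted p 0.0309) and was lost without WT 1, WT 3, *bdr2* 1, *bdr2* 2 or *bdr2* 3, with adjusted p of 0.31, 0.344, 0.239, 0.458 and 0.308. It was also lost in a fit of the 6 libraries alone (adjusted p 0.127).

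Besides *BDR2* itself, 1 called gene lay near that locus. AT5G11330 (chr5:3617138-3618913, minus strand), which encodes a FAD/NAD(P)-binding oxidoreductase, has its start on the side facing *BDR2*, 28949 bp before the start of *BDR2*. It stood at 24.5, 31.6 and 24.7 CPM in WT and at 11.9, 10.3 and 14.2 CPM in *bdr2*. The groups were well separated, and *bdr2* kept 45.1% of the WT mean (log2 -1.15 ± 0.14, adjusted p 0.000937 in edgeR). It was at 27.7 CPM in *bdr1* and in *fpa* but at 11.8, 10.7 and 10.8 CPM in *bdr3*, whose mutated gene lies on chromosome 2, and at 11.7 CPM in *bdrs*. *bdr2* was lower than *bdr1* (log2 -1.19 ± 0.15, adjusted p 0.00046) and differed from *bdr3* by 0.13 ± 0.15 (interval -0.18 to 0.44) and from *bdrs* by 0.05 ± 0.15 (interval -0.25 to 0.36). Thus the low level of AT5G11330 was found in *bdr2*, *bdr3* and *bdrs* and not in *bdr1* or *fpa*. The gene across its 238 bp gap, AT5G11340, stood at 29.3, 20.6 and 23.8 CPM in WT and 26.6, 26.1 and 21.8 CPM in *bdr2* (log2 0.01 ± 0.18).

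The rest of the region showed no call. Within 1 Mb on the 5′ side of *BDR2*, 251 genes were tested, of which AT5G11330 was called. An unadjusted p under 0.05 was found in 2 of them (0.797%, against 0.789% of all tested genes), AT5G11330 and AT5G08250. Within 1 Mb on the 3′ side, 230 genes were tested, and edgeR and DESeq2 called 0, with 0 at an unadjusted p under 0.05. The gene next to *BDR2* on the 5′ side, AT5G11420, which lies 450 bp upstream on the same strand, stood at 357.6, 267.6 and 312.4 CPM in WT and at 292.8, 316.3 and 283.1 CPM in *bdr2* (log2 -0.07 ± 0.18). On the 3′ side *CID5* differed by 0.30 ± 0.39 and *PPD5* by -0.01 ± 0.17 on the log2 scale. AT5G11425, a gene of 210 bp annotated inside *BDR2* on the opposite strand, had 0 counts in these libraries.

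**Figure D2:**
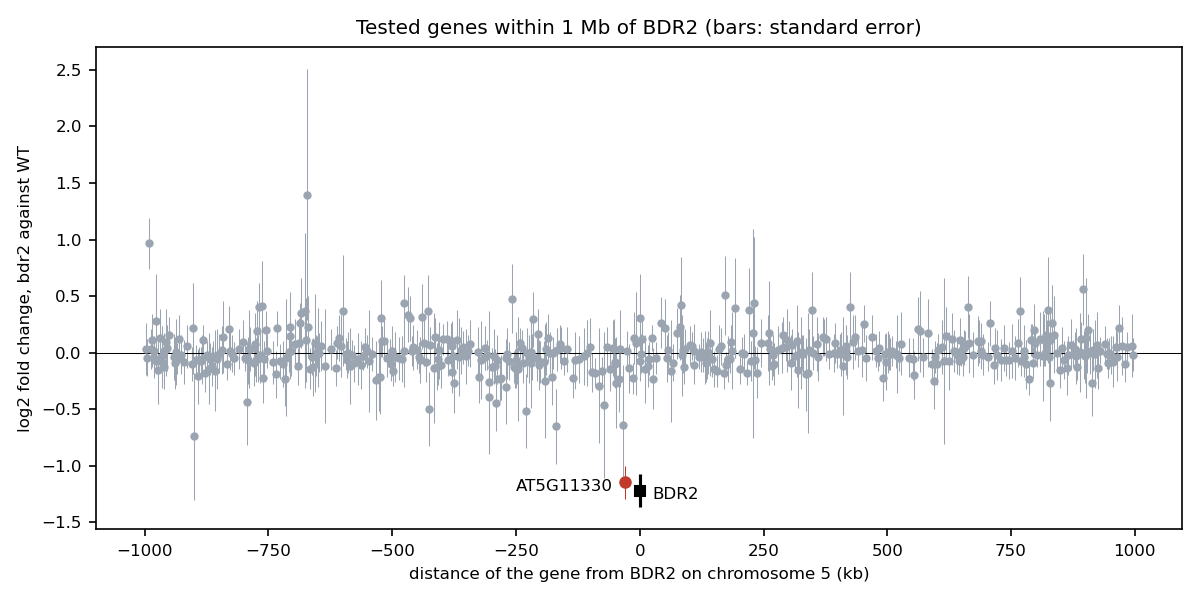
Log2 fold change of *bdr2* against WT (vertical axis) for the 481 other tested genes within 1 Mb to each side of *BDR2*, and for *BDR2*, plotted by distance from *BDR2* in kb, with bars for the standard error and called genes marked. Only *BDR2* (-1.22) and AT5G11330 (-1.15) were called.

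AT2G01422 (chr2:183940-184734, plus strand), a noncoding RNA gene, rested on few reads. It stood at 1.44, 1.43 and 1.52 CPM in WT (25, 26 and 27 counts) and at 0.346, 0.126 and 0.11 CPM in *bdr2* (5, 2 and 2 counts). The groups did not overlap, with a 7.54-fold difference of means (log2 -2.92 ± 0.44, interval -3.85 to -1.99, adjusted p 0.0103 in edgeR). Means were 0.358 CPM in *bdr1*, 0.728 in *bdr3* and 0.144 in *bdrs*, whereas *fpa* stood at 30.2, 39.1 and 55.8 CPM. Its neighbour across the gap, *PIN4*, an auxin efflux carrier gene, averaged 196 ± 34.9 CPM in WT and 197 ± 56.4 CPM in *bdr2* (log2 0.01 ± 0.21). The call was lost without *bdr2* 2 (adjusted p 0.148) or *bdr2* 3 (adjusted p 0.167).

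The 1 gene that rose was a pseudogene read in *bdr2* alone. AT5G28870 (chr5:10889278-10891421, minus strand) had 0 counts in the other 15 libraries of the series and 35, 27 and 57 counts in *bdr2*, or 2.42, 1.70 and 3.13 CPM. Against a floor of 3 counts over the 3 WT libraries together, its mean of 2.42 ± 0.718 CPM was at least 43-fold higher (adjusted p 0.0103 in edgeR). It was also called against *bdr1*, *bdr3* and *bdrs*, with adjusted p of 0.00646, 0.0264 and 0.000343 in edgeR. Each of these comparisons sets the same 3 *bdr2* libraries against a group at 0 counts, so they repeat 1 observation. The gene passed the filter on low counts through its *bdr2* libraries alone. The genes on either side, AT5G28865 and AT5G28880, had 0 counts. The call against WT was lost without *bdr2* 1 (adjusted p 0.0635) or *bdr2* 3 (adjusted p 0.068).

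The reverse pattern lay just outside the threshold, at a gene named here after its values were seen. AT5G20750 (chr5:7027773-7031290), also a pseudogene, had 17, 22 and 17 counts in the WT libraries and 0 counts in the other 15 libraries. With the floor of 3 counts over the 3 *bdr2* libraries, *bdr2* was at least 17-fold lower, with an adjusted p of 0.0516 in edgeR. Thus 1 pseudogene was read in *bdr2* only and another in WT only.

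**Figure D3:**
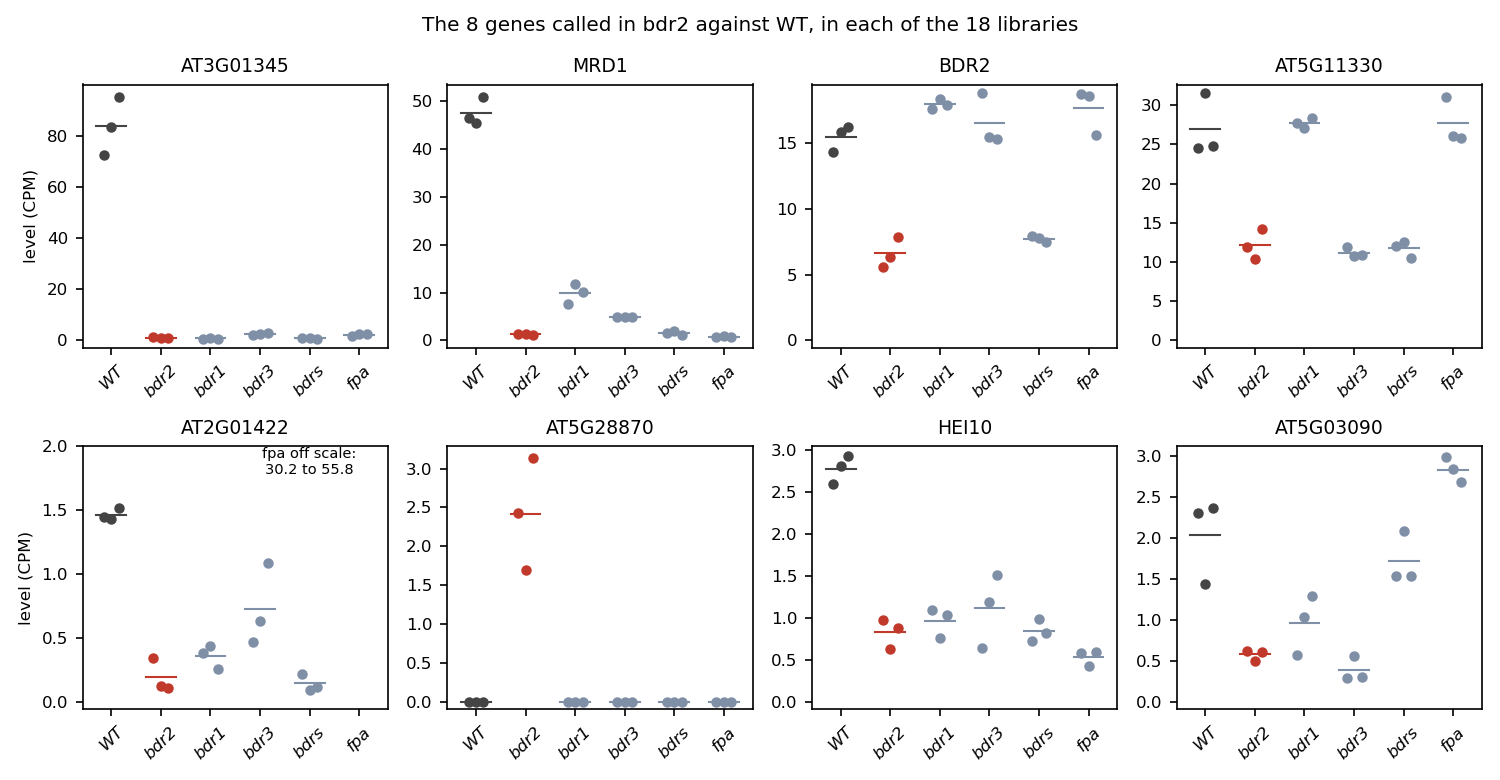
Levels in CPM (linear axes from 0, 1 panel per gene) of the 8 called genes in each of the 18 libraries, by group, 1 point per library. WT stands above every other group for AT3G01345, *MRD1* and *HEI10*, *bdr2* alone has reads of AT5G28870, and AT5G11330 is low in *bdr2*, *bdr3* and *bdrs*.

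Below the threshold, 10 genes that were higher and 5 that were lower were all that met the criteria for naming (unadjusted p under 0.01, a mean of at least 1 CPM and no overlap of libraries), none with an adjusted p under 0.794. AT5G08250, a cytochrome P450 gene, stood at 3.17, 2.36 and 2.14 CPM in WT and 6.30, 4.40 and 4.34 CPM in *bdr2* (log2 0.97 ± 0.23, adjusted p 0.794 in edgeR). AT3G05260, annotated as a Rossmann-fold protein gene, stood at 1.27, 0.825 and 0.90 CPM and 2.84, 2.08 and 1.59 CPM (log2 1.11 ± 0.31). AT4G21020, a late embryogenesis abundant gene of maturing seeds, stood at 6.98, 4.95 and 6.41 CPM and 11.6, 7.61 and 9.79 CPM (log2 0.66 ± 0.19). Among these 3, AT5G08250 was the one in which every *bdr2* library was above all 15 others of the series.

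On the lower side, *SADHU3-2*, a transposon-derived pseudogene, stood at 8.07, 6.32 and 9.78 CPM in WT and 2.63, 2.89 and 4.07 CPM in *bdr2* (log2 -1.32 ± 0.32, adjusted p 0.949 in edgeR). *COAB*, a gene of coenzyme A synthesis, was narrow in both groups, at 14.4, 14.3 and 14.1 CPM against 9.35, 9.87 and 10.3 CPM (log2 -0.53 ± 0.13, adjusted p 0.949). *DES1*, which encodes a cysteine desulfhydrase, stood at 1.67, 2.64 and 2.42 CPM against 1.18, 0.755 and 1.26 CPM (log2 -1.07 ± 0.34). The precursor gene *MIR408*, whose miRNA targets transcripts of copper proteins, had means of 2.05 ± 0.582 and 1.06 ± 0.249 CPM (log2 -0.96 ± 0.33). It was called lower in *bdr2* than in *bdrs* (log2 -1.76 ± 0.31, adjusted p 0.00142). None of these was called against WT.

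Gene groups that fit seedlings and BORDER proteins were counted next, in 17 lists of 271 genes, 239 of which were tested. Only *BDR2* and *HEI10* were called in edgeR and DESeq2. An unadjusted p under 0.05 was found in 4 of the 239 (1.67%), set against 0.789% of all genes. These 4 were the mutated *BDR2*, the called *HEI10*, *SESA1* and *EXPA7*. As the lists were chosen with earlier results known, these shares do not test whether the lists were enriched. For 200 of the 239 (83.7%) the 95% interval lay inside a 2-fold change. The genes of polymerase II elongation (15 of 15 tested) had a median log2 fold change of 0.053, those of RNA 3′ end formation (14 of 14) -0.019 and those of DNA methylation and silencing (14 of 14) 0.035, with -0.00165 over all tested genes. Each of these lists had 0 calls in edgeR and DESeq2 and 0 genes at an unadjusted p under 0.05. Every gene of these 3 lists, which hold the factors that carry polymerase along genes, cut its transcripts and silence chromatin, had a log2 fold change between -0.21 and 0.21. The 10 reference genes had a median of -0.0085, the 5 genes of the BORDER list 0.0011, the 8 tested genes of meiotic crossovers (of 14) -0.09 and the 9 of the root meristem and cell division (of 10) -0.058.

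Photosynthesis lists stayed close to 0. The 20 Calvin cycle genes had a median of 0.037, with 17 above 0, 3 below and a range from -0.02 to 0.12, and the 30 genes of light harvesting and the photosystems a median of 0.017 and a range from -0.04 to 0.10. None was called by edgeR or DESeq2, and 0 had an unadjusted p under 0.05. Hormone lists had medians of -0.069 for salicylic acid defence (14 of 18 tested), -0.019 for jasmonate (17 of 20) and -0.042 for abscisic acid, drought and cold (20 of 23). In these lists single genes were less sharply measured: 7 of the 14 salicylic acid genes had an interval inside a 2-fold change, and the smallest p was at *CBP60G*, a regulator of salicylic acid synthesis (log2 -0.61 ± 0.37), and for jasmonate at *ORA59*, a defence transcription factor (log2 -0.83 ± 0.82). The circadian clock (17 of 18) had a median of 0.029. None of these lists held a gene called by edgeR or DESeq2 or a gene at an unadjusted p under 0.05.

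Of the 17 lists, 3 had a median farther than 0.1 from 0, each without a call. Seed maturation genes (18 of 23 tested) had a median of 0.20, with 15 above 0. In that list *SESA1*, a seed storage albumin gene, stood at 1.38, 0.77 and 2.02 CPM in WT and 2.56, 2.26 and 2.53 CPM in *bdr2* (log2 0.82 ± 0.34, unadjusted p 0.0278, adjusted p 1 in edgeR). Root hair genes (8 of 8) had a median of 0.27, and *EXPA7*, an expansin of root hairs, stood at 6.80, 6.32 and 7.20 CPM in WT and 7.83, 9.56 and 9.46 CPM in *bdr2* (log2 0.40 ± 0.17, unadjusted p 0.0305, adjusted p 1). Heat shock genes (10 of 12) had a median of 0.25 with all 10 above 0, 0 of them with an unadjusted p under 0.05, and their smallest p was at *HSP18.2*, a small heat shock protein gene, whose groups overlapped (0.884 ± 0.189 and 1.23 ± 0.439 CPM, log2 0.47 ± 0.29). These counts and medians are descriptions of the lists.

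**Figure D4:**
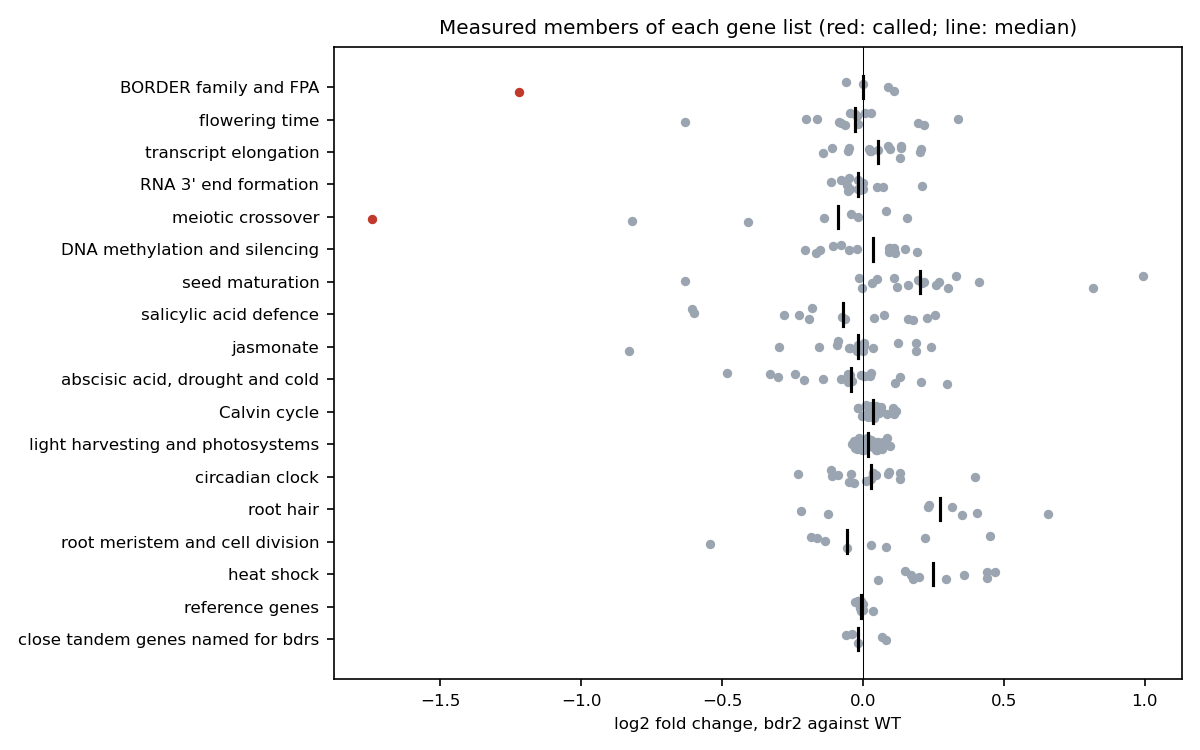
Log2 fold change of *bdr2* against WT for each tested gene of the gene lists, 1 line per list, with the list's median and the called genes marked. *BDR2* and *HEI10* are the 2 called genes, and list medians lie between -0.09 and 0.27.

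Flowering genes were set apart because *bdrs* raised *FLC*, the repressor of flowering. *FLC* stood at 6.69, 5.06 and 4.95 CPM in WT and at 5.96, 9.24 and 5.88 CPM in *bdr2*, overlapping groups (log2 0.34 ± 0.24, interval -0.17 to 0.84). In *bdrs* it averaged 42.0 ± 7.69 CPM, and *bdr2* lay below *bdrs* by -2.58 ± 0.23 on the log2 scale (adjusted p 6.17e-07 in edgeR). *SOC1*, a promoter of flowering repressed by *FLC*, averaged 12.2 ± 4.69 CPM in WT and 7.84 ± 1.52 CPM in *bdr2* (log2 -0.63 ± 0.41), with overlapping libraries. Over the 15 of 22 flowering genes tested, the median was -0.027 and none was called by edgeR or DESeq2 or had an unadjusted p under 0.05.

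The layout of genes was compared next, since BORDER proteins are tied to closely spaced tandem genes. Among the 2893 tested genes (14.5% of those placed) whose upstream neighbour lies on the same strand within 250 bp, the median log2 fold change in *bdr2* was -0.012, with quartiles of -0.087 and 0.064. None was called by edgeR or DESeq2, and 18 (0.622%) had an unadjusted p under 0.05, set against 0.789% of all genes. Among the 447 genes that overlap their tandem upstream neighbour the median was also -0.012, with 0 calls by either tool and 5 (1.12%) at an unadjusted p under 0.05. Among the 1937 genes with an opposite-strand upstream neighbour within 250 bp it was -0.008, with 16 (0.826%) at an unadjusted p under 0.05 and 3 called lower (0.155% of the class, against 0.0348% of all tested genes).

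Set beside *bdrs*, whose comparison uses the same 3 WT libraries, the classes of close and of overlapping tandem genes differed. In *bdrs* against WT, 381 genes were higher (1.89%) and 559 lower (2.78%), and of the close tandem genes 28 were higher and 283 (9.78%) lower, with a median of -0.094. Of the 447 overlapping tandem genes, 9 were higher and 58 (13%) lower in *bdrs* against WT, with a median of -0.14. In the direct comparison of *bdr2* with *bdrs*, which uses no WT library, 514 genes were higher in *bdr2* (2.55%) and 362 lower (1.8%). Of the close tandem genes, 259 (8.95%) were higher in *bdr2* and 25 lower, and of the overlapping ones 47 (10.5%) were higher and 9 lower.

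**Figure D5:**
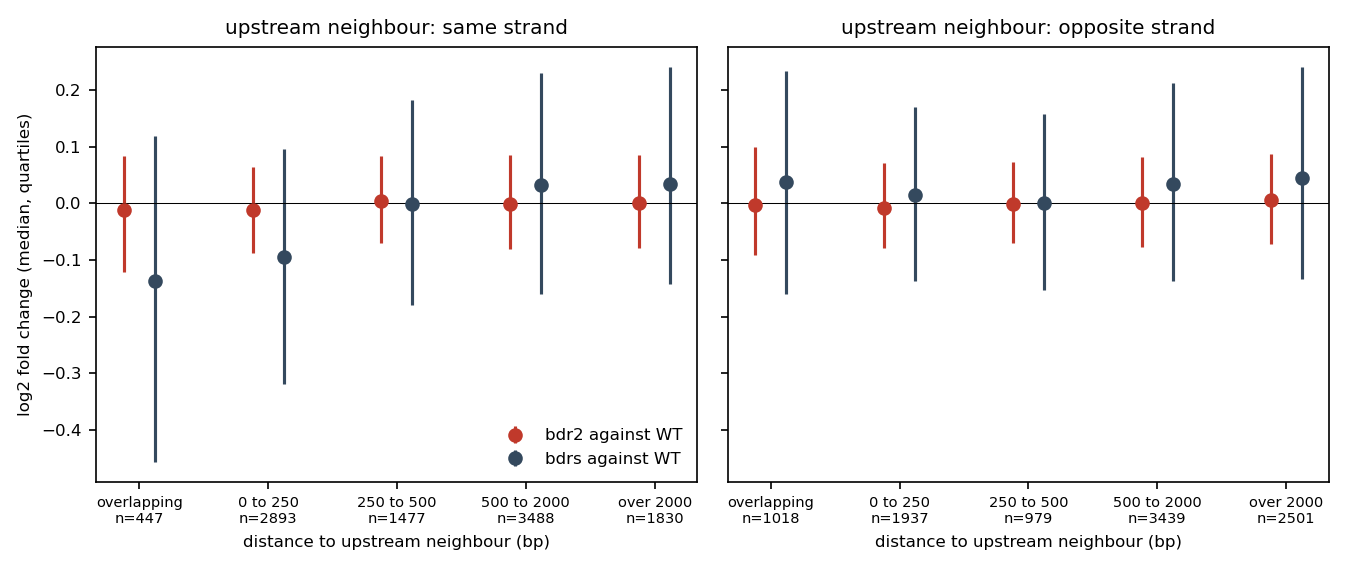
Median log2 fold change against WT, with quartiles, of tested genes grouped by the strand of the upstream neighbour and the distance to it in bp, for *bdr2* and for *bdrs*, which share the 3 WT libraries. At 0 to 250 bp in tandem the median is -0.012 in *bdr2* and -0.094 in *bdrs*.

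The 5 close tandem genes chosen for their fall in *bdrs* were all within -0.06 to 0.08 on the log2 scale in *bdr2* against WT. AT4G11410 stood at 15.8, 14.0 and 13.4 CPM in WT and 15.1, 14.0 and 13.6 CPM in *bdr2*, but at 0.146, 0.0943 and 0.176 CPM in *bdrs*. *NdhM*, a subunit of the chloroplast NDH complex, stood at 51.7, 42.4 and 32.6 CPM in WT and 45.5, 49.3 and 39.3 CPM in *bdr2*, but at 4.08, 4.01 and 4.70 CPM in *bdrs*. Being chosen for *bdrs*, these genes describe the contrast and do not test it. The difference of *bdr2* from *bdrs* was 6.64 ± 0.23 for AT4G11410, 5.39 ± 0.28 for AT4G31310, 3.74 ± 0.20 for AT5G52370 and 3.39 ± 0.19 for *NdhM* on the log2 scale.

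Against the single mutants few genes differed. In *bdr2* against *bdr3*, 1 gene was higher (0.00496%), AT5G28870, and 2 were lower (0.00993%), *BDR2* and *MRD1*, the latter at 1.28 ± 0.118 CPM in *bdr2* and 4.87 CPM in *bdr3*. The single mutants *bdr2* and *bdr3* thus differed at the mutated *BDR2*, at 1 pseudogene and at *MRD1*, at this depth. In *bdr2* against *bdr1*, 24 genes were higher (0.119%) and 4 lower (0.0199%). *BDR1*, mutated in the other line, was higher in *bdr2* by 1.95 ± 0.17 on the log2 scale (adjusted p 7.71e-06 in edgeR). The lower genes were *BDR2*, *MRD1*, AT5G11330 and AT5G15360, the last at 5.64, 8.75 and 7.04 CPM in *bdr1* and 1.39, 1.01 and 1.32 CPM in *bdr2*, near its WT mean of 1.43 ± 0.31 CPM.

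Of the 24 genes higher in *bdr2* than in *bdr1*, 10 are annotated as late embryogenesis abundant (LEA) genes, whose proteins build up in maturing seeds, a grouping made after the genes were seen. That annotation is carried by 65 of the 20143 tested genes (0.323%). AT4G36600, 1 of them, stood at 6.07, 5.00 and 4.46 CPM in *bdr1* and 15.7, 14.1 and 10.3 CPM in *bdr2* (log2 1.35 ± 0.18, adjusted p 0.00121 in edgeR). AT3G15670 and AT3G53040 were higher by 1.24 ± 0.18 (adjusted p 0.00358) and 1.27 ± 0.19 (adjusted p 0.00463), and AT2G18540, a cupin gene, by 1.53 ± 0.23 (adjusted p 0.00507). In the seed maturation list, 1 of 18 tested genes was called, *EM1*, and the median was 1.04 against -0.014 over all tested genes. Of the 18, 15 (83.3%) had an unadjusted p under 0.05 in edgeR, against 5.56% of all. This list was chosen with earlier results of these data known. These values thus describe it and do not test whether it was enriched.

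In AT4G36600, AT3G15670, AT3G53040 and AT2G18540, *bdr2* and *bdr3* had means above WT, and *bdr1*, *bdrs* and *fpa* means below it. AT3G53040 averaged 17.5 CPM in WT, 23.5 in *bdr2* and 26.5 in *bdr3*, but 9.76 in *bdr1*, 7.56 in *bdrs* and 3.25 in *fpa*. AT2G18540 averaged 4.18 CPM in WT, 5.64 in *bdr2* and 7.35 in *bdr3*, but 1.92 in *bdr1*, 1.85 in *bdrs* and 0.612 in *fpa*. Against WT none of the 4 named genes was called in *bdr2*, with log2 fold changes of 0.24 (AT4G36600), 0.39 (AT3G15670), 0.42 (AT3G53040) and 0.43 (AT2G18540). The count of calls against *bdr1* moved with the libraries, to 10 without *bdr2* 1, 13 without *bdr1* 2 and 10 without *bdr1* 3, and to 14 without the 3 libraries richest in ribosomal RNA, of which *bdr1* 3 is 1.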

How the data were processed

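The authors sequenced stranded mRNA libraries as 2 × 43 bp reads, aligned them with STAR 2.5.2b, kept uniquely aligned reads with SAMtools 1.3.1 and summed them over TAIR10 genes with featureCounts (strand setting not given in the sources used here). The deposited table of counts per gene is not normalized and was the input of every test. The deposited normalized signal, which the authors made by dividing counts by DESeq2 1.14.1 size factors in R 3.3.2, only defined an alternative gene set. All columns matched 1 of 18 samples by name.

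Counts were tested with edgeR 4.0.16 in R 4.3.3 (TMM, filterByExpr, quasi-likelihood F test, 18 libraries, 12 residual degrees of freedom, Benjamini-Hochberg over 20143 genes), a call being an adjusted p under 0.05. The common biological coefficient of variation was 17.3%. Replicate libraries differed by more than sampling noise. Alternatives were DESeq2 1.42.0, other scalings, gene filters and library sets, and a replicate block.

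Named genes are the *BDR* genes and *FPA*, all called genes, *FLC*, up to 10 higher and 10 lower uncalled genes of largest fold change (unadjusted p under 0.01, mean of at least 1 CPM, no overlap), the 5 of smallest p in each direction against each other mutant, each list's smallest p, and neighbours. The genes, lists and rules were chosen with earlier results of these data known. Sequences were read from RefSeq's TAIR10.1 genome.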

Additional observations from a re-analysis of the deposited data

How the results depend on the processing

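The 8 calls in *bdr2* against WT were the same genes under DESeq2, other size factors, library totals and a filter of 1 CPM, numbered 9 with every gene kept, 6 within the genes of the authors' table and 8 in a fit of the 6 libraries alone, and ranged from 4 to 7 with 1 library left out. AT3G01345, *MRD1*, *BDR2* and AT5G11330 were called in all 15 alternatives, AT2G01422 and AT5G28870 in 12 of 14, *HEI10* in 9 of 15 and AT5G03090 in 7 of 15. AT5G20750 was added with every gene kept, in the fit of 6 libraries, without 3 libraries rich in ribosomal RNA, and without *bdr1* 1, *bdr1* 3 or *bdr3* 1.

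Against *bdr1*, the 28 calls became 55 under DESeq2 (50 higher, 5 lower) and 14 with 3 libraries rich in ribosomal RNA left out, a set chosen after seeing the data, and ranged from 10 to 22 with 1 library left out. Against *bdr3*, the 3 calls became 2 in every fit with 1 library left out. Against *bdrs*, the 876 calls ranged from 544 to 1148 with 1 library left out, the lowest without *bdrs* 2. With library totals the median of close tandem genes moved from -0.012 to -0.027, and that of all tested genes from -0.00165 to -0.017. This shift was thus not particular to close tandem genes. With 1 library left out, the median of close tandem genes ranged from -0.023 to -0.000114. The cause of these changes was not tested.

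Differences near 0 changed sign. *FPA* gave -0.000179 with DESeq2, -0.000859 with its size factors, -0.018 with library totals, -0.00031 with a filter of 1 CPM, -3.28e-05 with the 6 libraries alone and -0.000434 with those 3 libraries left out. With 1 library left out, *FPA* ranged from -0.14 to 0.18, *BDR1* from -0.13 to 0.0704 and *BDR3* from -0.059 to 0.24.

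The main fit did not treat libraries with the same number as paired. Deviations of WT and *bdr2* libraries with the same number correlated at 0.107, -0.272 and 0.252, a measure of these groups only. The share of counts from light harvesting genes was lowest in library 1 and highest in library 3 of all 6 groups, at 14.9%, 15.2% and 18.8% in WT 1, 2 and 3 and 13.9%, 15.8% and 19.1% in *bdr2* 1, 2 and 3. Libraries of the same number thus had an order in common in this share, and what else they had in common was not tested. With a replicate block, 7 genes were called against WT (8 without it), AT5G03090 being lost (adjusted p 0.0779). With the block, 36 were called against *bdr1* (28 without it), 2 against *bdr3* (3 without it) and 1128 against *bdrs* (876 without it). Depth limited the low genes: AT2G01422 rested on 9 reads in *bdr2* and AT5G28870 on 119.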
